A study of Mus musculus with 10 samples.

Results

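The Krüppel-like factors analysed here were 10 genes, *Klf2*, *Klf3*, *Klf4*, *Klf5*, *Klf6*, *Klf7*, *Klf9*, *Klf10*, *Klf13* and *Klf15*. They were taken by gene symbol from the 29268 genes of the deposited table, with earlier results of these data known, and all 10 passed the filter on low counts. RNA of the whole uterus was sequenced from 5 HSD17B1TG and 5 WT female mice, all on the FVB/N background and 4 months of age, with 1 library per mouse. The HSD17B1TG mice carried 1 allele of a transgene for human HSD17B1, the enzyme that converts estrone to the more potent estradiol, driven in all tissues by a CMV-enhanced chicken beta actin promoter. Genotype and estrous cycling cannot be told apart in this design, since cycling is lost in the transgenic females and the WT group was not staged. The mice are called TG1 to TG5 and WT1 to WT5, where the number is only a name.

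Krüppel-like factors are transcription factors that read GC-rich and CACCC-type DNA through a run of zinc fingers at their carboxyl end, and their amino ends recruit different partners. *Klf2*, *Klf4*, *Klf5*, *Klf6* and *Klf7* form a group that mostly activates transcription with acetyltransferases, *Klf3* represses with the CtBP proteins, and *Klf9*, *Klf10* and *Klf13* bind the SIN3A corepressor. In the uterus KLF9 is known as a partner of the progesterone receptor, KLF5 as a factor needed for implantation, and KLF15 as a brake on estrogen-driven proliferation of the epithelium.

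The DNA just before the start of these genes is shown for the members the results turn on, because the factors bind motifs that their own promoters also hold. The bases come from RefSeq (GRCm38.p6), which had a promoter window for 8 of the 10 members and not for *Klf5* and *Klf10*. Each run is printed 5′ to 3′ on the strand of the gene and ends before the start of the gene in both annotations. Capitals mark the GC box (GGGCGG or its complement CCGCCC), the E-box CACGTG and, in *Klf2*, a match to the MEF2 motif. The runs lie at chr8:72318812-72319032 (plus strand) for *Klf2*, chr5:64803271-64803387 (plus) for *Klf3*, chr4:55532476-55532725 (minus) for *Klf4*, chr19:23140976-23141225 (plus) for *Klf9* and chr6:90462326-90462575 (plus) for *Klf15*.
Klf2: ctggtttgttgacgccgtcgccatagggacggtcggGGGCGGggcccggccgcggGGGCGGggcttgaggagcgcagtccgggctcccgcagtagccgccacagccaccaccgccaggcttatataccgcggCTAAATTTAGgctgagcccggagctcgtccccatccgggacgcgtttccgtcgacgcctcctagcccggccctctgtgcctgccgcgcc
Klf3: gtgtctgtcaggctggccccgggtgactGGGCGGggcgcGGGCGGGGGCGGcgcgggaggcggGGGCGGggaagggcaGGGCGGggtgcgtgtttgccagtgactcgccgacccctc
Klf4: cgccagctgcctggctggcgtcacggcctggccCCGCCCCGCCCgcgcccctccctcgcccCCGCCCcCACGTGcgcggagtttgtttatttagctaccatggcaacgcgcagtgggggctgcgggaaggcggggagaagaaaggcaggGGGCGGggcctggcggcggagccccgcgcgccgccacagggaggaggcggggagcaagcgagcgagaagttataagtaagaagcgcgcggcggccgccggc
Klf9: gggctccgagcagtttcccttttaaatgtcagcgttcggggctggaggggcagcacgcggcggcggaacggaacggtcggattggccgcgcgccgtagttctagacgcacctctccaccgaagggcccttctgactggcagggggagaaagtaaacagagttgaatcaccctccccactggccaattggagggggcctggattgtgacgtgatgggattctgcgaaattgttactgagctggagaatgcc
Klf15: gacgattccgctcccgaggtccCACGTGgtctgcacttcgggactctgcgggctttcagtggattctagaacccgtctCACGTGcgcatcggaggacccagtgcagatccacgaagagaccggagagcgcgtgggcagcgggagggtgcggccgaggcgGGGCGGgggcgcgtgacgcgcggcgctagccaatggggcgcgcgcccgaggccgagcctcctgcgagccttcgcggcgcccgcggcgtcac

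In the 250 bases before the RefSeq start, searched on both strands, the GC box was found in 7 of 8 members and in 32.7% of the 32851 windows of the mouse table. The window of *Klf7*, which counts among the 8, lies inside the gene as the deposited annotation has it and not before that start. *Klf3* held 6 GC boxes, 5 of them in the printed run and 1 nearer to the RefSeq start, and *Klf4* held 4, a pair of which share a base, and *Klf9* was the member with 0. CACCC or its complement GGGTG was found in 6 of 8 members and 52.0% of windows, and CCAAT or its complement ATTGG in 4 of 8 members and 33.8%. The E-box CACGTG occurred in 3 of 8 members, *Klf4*, *Klf6* and *Klf15*, and in 6.02% of windows, with 2 copies in *Klf15*. GGTCA or its complement TGACC, the half-site of the estrogen receptor, was present in *Klf3* and *Klf6* and in 35.2% of windows, whereas AGAACA or its complement TGTTCT, the half-site of the glucocorticoid receptor, was present in 0 of 8 members and 16.1% of windows. The MEF2 motif was found in *Klf2* and in 2.92% of windows. These are matches of letters within short windows, and the GC content of the members' windows was 59.2% to 78.4% against a median of 52.4% over all windows.

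*Klf4* was the most abundant member in both genotypes, as judged by mean FPKM, which are read fragments scaled to the length of the gene and the depth of the library. The annotated lengths that enter the FPKM run from 1847 bases for *Klf2* to 11243 bases for *Klf3*. In the HSD17B1TG uterus the order of the means was *Klf4* (115 FPKM), *Klf6* (24.2), *Klf9* (21.2), *Klf3* (19.8), *Klf2* (15.7), *Klf10* (13.6), *Klf5* (9.31), *Klf13* (8.43), *Klf15* (4.28) and *Klf7* (2.17). *Klf4* exceeded *Klf6* in 5 of 5 of these mice, and the steps from *Klf13* to *Klf15* and from *Klf15* to *Klf7* also held in 5 of 5, while each of the other neighbours changed places in at least 1 mouse. In the WT uterus the order was *Klf4* (40.5 FPKM), *Klf9* (26.0), *Klf2* (19.5), *Klf6* (16.8), *Klf15* (10.9), *Klf3* (10.6), *Klf10* (10.4), *Klf13* (8.99), *Klf5* (5.45) and *Klf7* (1.98). There *Klf4* exceeded *Klf9* in only 2 of 5 mice, and the steps that held in 5 of 5 were *Klf6* over *Klf15*, *Klf13* over *Klf5* and *Klf5* over *Klf7*.

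The FPKM of the 10 members summed to 233 ± 46.9 (SD, n = 5) in HSD17B1TG, from 189 to 296, and to 151 ± 41.1 in WT, from 107 to 196. *Klf4* alone made up 48.1% ± 15.8 of that sum in HSD17B1TG (21.5% to 59.4%) and 25.1% ± 14.8 in WT (11.5% to 41.1%). The ranges of both quantities overlapped between the genotypes. Counts behind single values ran from 100 to 8337 per member and mouse, out of totals of 14817228 to 23271988 counts per mouse.

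**Figure D1:**
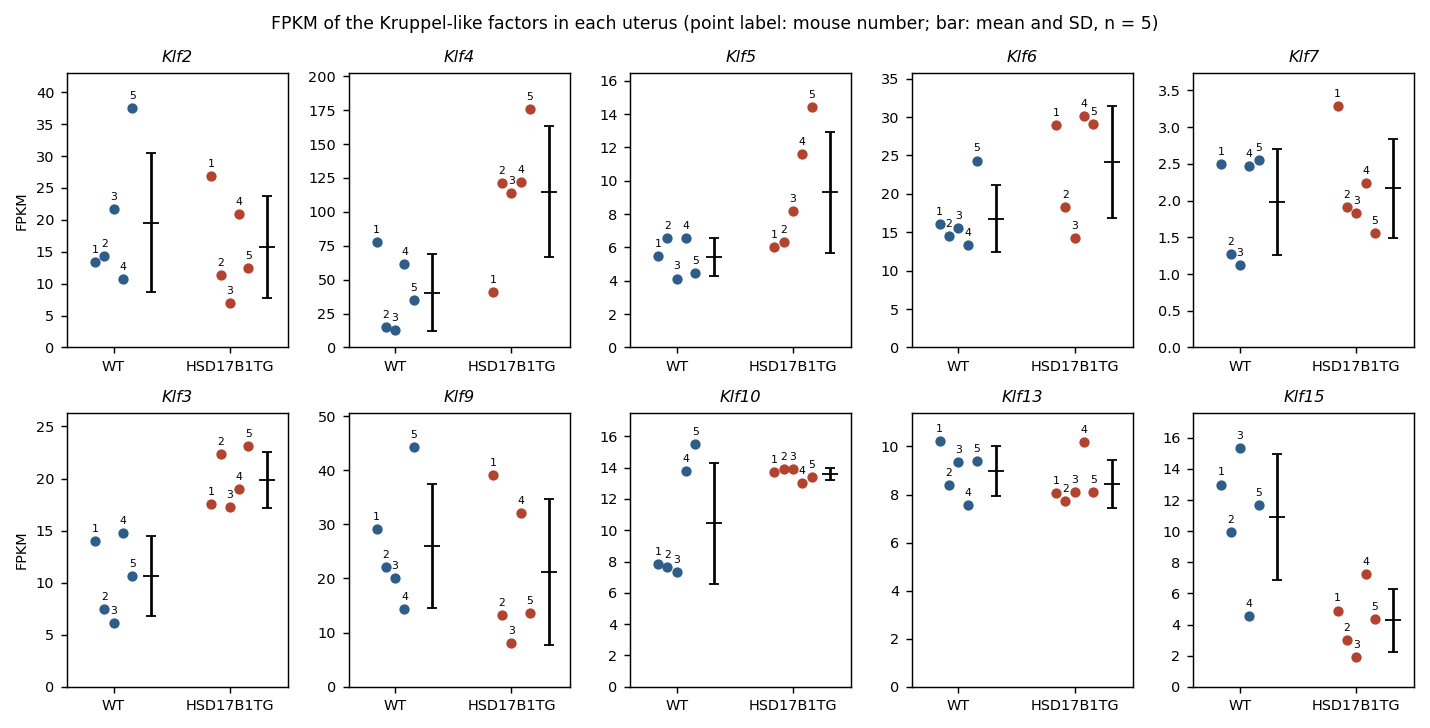
FPKM of each Krüppel-like factor (vertical axis, from 0 in each panel) in each WT (blue) and HSD17B1TG (red) uterus, with the mouse number beside each point and bars for mean and SD (n = 5). *Klf3* is the member whose genotypes do not overlap, and in *Klf15* WT4 lies among the HSD17B1TG mice at 4.53 FPKM.

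The comparison of the genotypes asked which of these factors differ between a uterus under constant estrogen exposure and one that cycles. In edgeR's quasi-likelihood test, 0 of 10 members passed the thresholds of the study (adjusted p under 0.05, fold change over 2 and mean FPKM over 1 in either group), against 4.24% of the 16993 genes tested. At an unadjusted p under 0.05 the count was 4 of 10 (*Klf3*, *Klf4*, *Klf5* and *Klf15*), against 26.1% of all genes, so that background was high. DESeq2, the tool to which the study applied these thresholds, here called 2 members with them, *Klf4* and *Klf15*, against 7.76% of its genes. With limma voom and sample quality weights 3 were called, *Klf3*, *Klf4* and *Klf15*, against 10.3%. Of the 10 members 6 had a higher and 4 a lower fitted level in HSD17B1TG. Their median fold change was 0.25 on the log2 scale, against 0.00 over all genes tested. Fold changes below are HSD17B1TG over WT on the log2 scale, with the standard error of the edgeR fit.

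**Figure D2:**
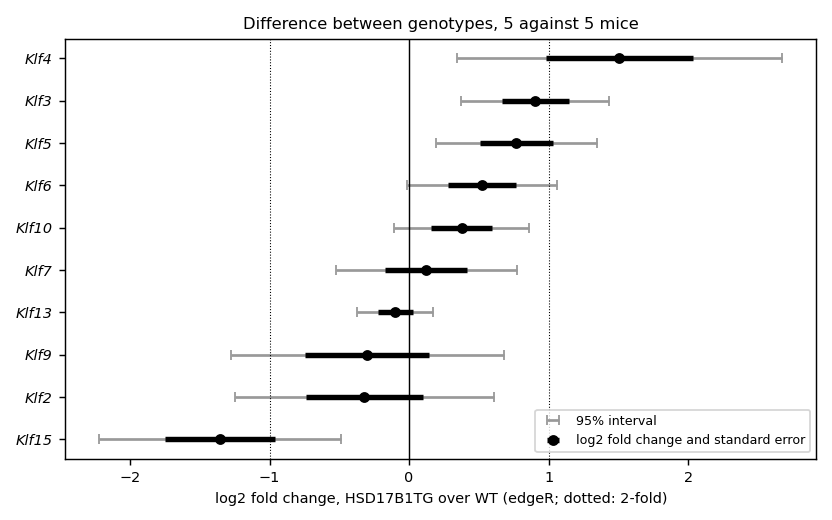
Log2 fold change of HSD17B1TG over WT for each member from edgeR (horizontal axis), with the standard error as a thick bar and the 95% interval as a thin bar, 5 mice against 5, and dotted lines at 2-fold. The intervals of *Klf4*, *Klf3* and *Klf5* lie above 0, that of *Klf15* lies below 0, and the other 6 include 0.

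Among the activating members, *Klf4*, a factor of epithelial differentiation (ENSMUSG00000003032, chr4:55527143-55532466, minus strand), had the widest difference upwards. Its level was 40.6, 121, 114, 122 and 176 FPKM in TG1 to TG5 and 78.1, 14.8, 13.1, 61.3 and 35.1 FPKM in WT1 to WT5. TG2 to TG5 were above every WT mouse, while TG1 lay below WT1 and WT4. The means of 115 ± 48.2 and 40.5 ± 28.6 FPKM (SD, n = 5) gave a log2 fold change of 1.51 (standard error 0.53, 95% interval 0.34 to 2.67), which missed the threshold in edgeR (adjusted p = 0.104). DESeq2 gave the same gene an adjusted p of 0.0343, and limma voom an adjusted p of 0.0202 at 2.02. WT2 and WT3 were the lowest mice, and *Klf4* varied more among the WT mice, with a coefficient of variation of 70.7%, than any other member did in either genotype.

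*Klf5*, which promotes growth of epithelial cells (ENSMUSG00000005148, chr14:99298691-99315036, plus strand), had 6.0, 6.31, 8.18, 11.6 and 14.4 FPKM in TG1 to TG5. In WT1 to WT5 it had 5.47, 6.59, 4.14, 6.55 and 4.49 FPKM. TG3, TG4 and TG5 were above every WT mouse and the other 2 were within the WT range. The log2 fold change was 0.77 (standard error 0.26, 95% interval 0.19 to 1.35, edgeR adjusted p = 0.0955), with means of 9.31 ± 3.63 and 5.45 ± 1.14 FPKM.

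*Klf2*, which keeps endothelium and T cells quiescent (ENSMUSG00000055148, chr8:72319033-72321656, plus strand), ranged more within each genotype than between them. It had 26.9, 11.4, 6.99, 20.9 and 12.4 FPKM in TG1 to TG5 and 13.4, 14.4, 21.8, 10.7 and 37.5 FPKM in WT1 to WT5. TG3 was the lowest and WT5 the highest of the 10 mice. The log2 fold change was -0.32 (standard error 0.42, edgeR adjusted p = 0.672), and its 95% interval of -1.25 to 0.61 held a fall of over 2-fold as well as a rise of under 2-fold.

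*Klf6*, induced by injury (ENSMUSG00000000078, chr13:5861482-5870394, plus strand), had 29.0, 18.3, 14.3, 30.1 and 29.1 FPKM in TG1 to TG5 and 16, 14.5, 15.6, 13.3 and 24.3 FPKM in WT1 to WT5. TG1, TG4 and TG5 formed a high set above all WT mice, and TG2 and TG3 lay within the WT range. The same 3 mice had the highest share of counts on mitochondrial genes, at 5.74%, 6.87% and 7.57% against 1.94% to 3.37% in the other 7 mice, and its part in the result was not tested. The log2 fold change was 0.52 (standard error 0.24, edgeR adjusted p = 0.203). *Klf7*, known from neurons (ENSMUSG00000025959, chr1:64029447-64122282, minus strand), was the lowest member at 1.56 to 3.29 FPKM in HSD17B1TG and 1.12 to 2.56 FPKM in WT. The fitted difference was a log2 fold change of 0.12 (standard error 0.29, 95% interval -0.52 to 0.77, edgeR adjusted p = 0.828). Annotated noncoding genes overlap *Klf7* on both strands, and the strand setting of the counting is not given in the sources used here.

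*Klf3*, the CtBP-dependent repressor (ENSMUSG00000029178, chr5:64803388-64832901, plus strand), was the member with no overlap between the genotypes. It had 17.6, 22.3, 17.3, 18.9 and 23.1 FPKM in TG1 to TG5 and 14, 7.46, 6.09, 14.8 and 10.7 FPKM in WT1 to WT5. All 5 HSD17B1TG mice were above all 5 WT mice, which was the case for 1 of 10 members and for 6.69% of all genes tested in either direction. The means of 19.8 ± 2.71 and 10.6 ± 3.85 FPKM gave a log2 fold change of 0.90 (standard error 0.24, 95% interval 0.37 to 1.43), just short of the adjusted p threshold (0.0509 in edgeR) and below a 2-fold change. DESeq2 gave it an adjusted p of 0.0117 at the same fold change, again below 2-fold, and limma voom passed it with 1.12 (adjusted p = 0.00969). *Klf3* overlaps *Gm20033* on the other strand and *C230096K16Rik* on its own strand, whose reads the counting could have shared with it.

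Of the SIN3A-binding members, *Klf9* (ENSMUSG00000033863, chr19:23141226-23166911, plus strand) split the HSD17B1TG mice. It had 39.1, 13.2, 8.03, 32.1 and 13.6 FPKM in TG1 to TG5 and 29.2, 22.2, 20.1, 14.3 and 44.2 FPKM in WT1 to WT5. TG2, TG3 and TG5 were below every WT mouse, whereas TG1 and TG4 were above 4 of 5 WT mice. The log2 fold change was -0.30 (standard error 0.44, 95% interval -1.28 to 0.68, edgeR adjusted p = 0.715), so that neither a fall of over 2-fold nor a modest rise was outside the interval. The promoter of *Klf9*, printed above, was the member window without a GC box.

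*Klf10*, first described as a gene induced early by TGF-beta (ENSMUSG00000037465, chr15:38291463-38300706, minus strand), was nearly constant in HSD17B1TG, with 13.7, 13.9, 13.9, 13 and 13.4 FPKM in TG1 to TG5. The WT mice fell apart into WT1, WT2 and WT3 at 7.86, 7.65 and 7.36 FPKM and WT4 and WT5 at 13.8 and 15.5 FPKM. The coefficient of variation was 2.93% in HSD17B1TG and 37.3% in WT, a difference in spread that was not tested. The log2 fold change was 0.38 (standard error 0.22, 95% interval -0.11 to 0.86, edgeR adjusted p = 0.303).

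*Klf13*, a close relative of *Klf9* that was first described in activated T cells (ENSMUSG00000052040, chr7:63886351-63938915, minus strand), had the narrowest estimate. It had 7.72 to 10.2 FPKM in HSD17B1TG (median 8.10) and 7.56 to 10.2 FPKM in WT (median 9.37). The log2 fold change of -0.10 (standard error 0.12, edgeR adjusted p = 0.660) had a 95% interval of -0.37 to 0.17, which does not reach a 2-fold difference in either direction. Genes annotated on the other strand, *Gm27252* and *E030018B13Rik*, overlap *Klf13*.

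*Klf15* (ENSMUSG00000030087, chr6:90462576-90475238, plus strand), which drives amino acid catabolism and is induced by glucocorticoids, was the member with the widest difference downwards. It had 4.90, 2.99, 1.90, 7.24 and 4.35 FPKM in TG1 to TG5 and 13, 9.94, 15.4, 4.53 and 11.7 FPKM in WT1 to WT5. WT4 was the one WT mouse within the HSD17B1TG range, and the other 4 were above every HSD17B1TG mouse. The WT mean of 10.9 ± 4.07 FPKM was 2.55 times the HSD17B1TG mean of 4.28 ± 2.03 FPKM, and the log2 fold change was -1.35 (standard error 0.39, 95% interval -2.22 to -0.49), which missed the threshold in edgeR (adjusted p = 0.0618). DESeq2 called *Klf15* with an adjusted p of 0.0108 and limma voom with 0.0125. Without WT4 edgeR also called it, with a log2 fold change of -1.55 and an adjusted p of 0.0183, and in that fit *Klf3* was called as well (1.05, adjusted p = 0.0208), while the share of all genes called also went up, to 8.96% of 17344.

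**Figure D3:**
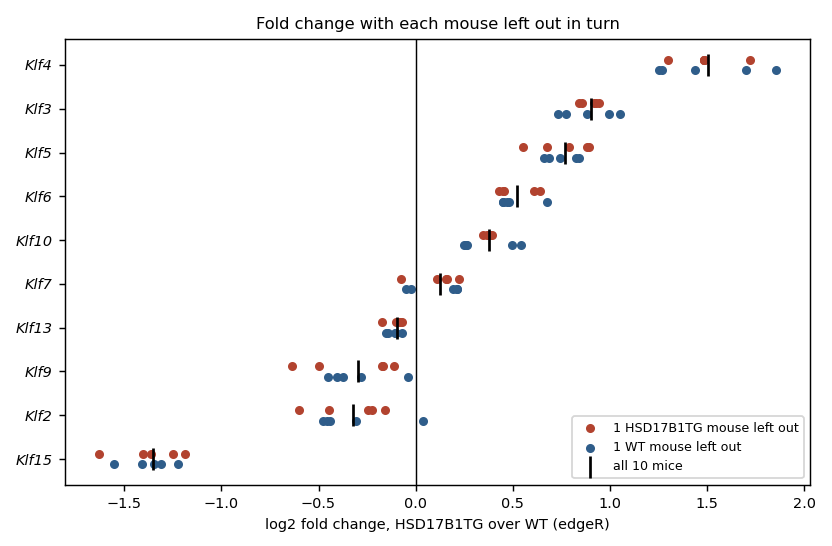
Log2 fold change of each member from edgeR (horizontal axis) with all 10 mice (black line) and with each HSD17B1TG mouse (red) or WT mouse (blue) left out in turn. *Klf3*, *Klf4*, *Klf5*, *Klf6* and *Klf10* stay above 0 and *Klf9*, *Klf13* and *Klf15* below 0 in all 10 fits, while *Klf2* and *Klf7* cross 0.

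The rest of the family and the partners of these factors were read from lists of genes in the same fit. Over all genes tested in each fit, edgeR called 4.24%, DESeq2 7.76% and limma voom 10.3%, and 26.1% had an unadjusted p under 0.05 in edgeR. The counts of the lists here and below stand against these shares. Of the other Krüppel-like and Sp genes 13 of 17 listed were in the table and 11 were tested, of which 3 were higher and 8 lower, with a median log2 fold change of -0.42. *Klf8*, a repressor that like *Klf3* binds CtBP, fell, from 0.961, 1.37, 1.60, 0.642 and 1.66 FPKM in WT1 to WT5 to between 0.185 and 0.441 FPKM in HSD17B1TG. With no overlap between the genotypes its log2 fold change was -1.93 (standard error 0.36, edgeR adjusted p = 0.0224), at a level near 1 FPKM. *Sp3*, named after its values were seen, also had no overlap, at 17.2 ± 1.28 against 22.3 ± 1.45 FPKM (log2 fold change -0.38, edgeR adjusted p = 0.0509). Thus edgeR and limma voom called 1 of 11, against 4.24% and 10.3% of all genes tested, whereas DESeq2 called 2, *Klf8* and *Sp5*, against 7.76% of its genes. *Sp5*, named after its values were seen, had 0.272 ± 0.353 against 1.80 ± 1.79 FPKM (log2 fold change -2.71, edgeR adjusted p = 0.0988).

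None of the 13 cofactors and 8 ubiquitin ligases that act on these factors was called in edgeR, and DESeq2 and limma voom also called 0 of them. An unadjusted p under 0.05 was found in edgeR for 1 of 13 cofactors and 4 of 8 ligases, against 26.1% of all genes tested. The cofactors with the smallest p were *Hdac2*, a histone deacetylase of the SIN3A complex (21.3 ± 2.62 FPKM in HSD17B1TG, 31.2 ± 5.77 in WT, adjusted p = 0.0520), and *Ep300*, an acetyltransferase (7.49 ± 0.526 and 6.38 ± 0.679 FPKM, adjusted p = 0.212). The ligases with the smallest p were *Smurf1* (log2 fold change 0.66, adjusted p = 0.0808) and *Btrc* (-0.45, adjusted p = 0.0900). The kinase MAPK7 and the MEF2 factors, through which blood flow induces *Klf2* and *Klf4* in endothelium, also gave 0 calls among 7 genes in edgeR, DESeq2 and limma voom. Of these 7 genes 2 had an unadjusted p under 0.05, against the same 26.1%, *Mapk7* (-0.58, edgeR adjusted p = 0.113) and *Mef2d* (0.37, edgeR adjusted p = 0.157).

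Genes that these factors are known to control were read from 3 lists, whose counts stand against the 4.24% called over all genes. Of 8 tested vascular and lymphocyte targets of KLF2 and KLF4, 5 were higher and 3 lower (median log2 fold change 0.43), and 1 was called, the sphingosine phosphate receptor *S1pr1*, which fell to 5.82 ± 1.86 from 13.4 ± 5.11 FPKM (log2 fold change -1.20, edgeR adjusted p = 0.0440). The other 2 at an unadjusted p under 0.05, named after their values were seen, were higher, *Nfe2l2* (0.89, adjusted p = 0.0773) and *Edn1* (0.96, adjusted p = 0.109). Of 8 genes linked to KLF5, 0 were called in edgeR and 2 had an unadjusted p under 0.05, *Pdgfa*, a growth factor (0.94, adjusted p = 0.0678), and *Cdh1*, the epithelial cadherin (1.20, adjusted p = 0.103), which DESeq2 and limma voom called upwards. *Cdh1* is counted again among the 14 epithelial markers below, all of which were higher. Of 8 tested genes of amino acid catabolism and glucose uptake linked to KLF15, 6 were lower, and proline dehydrogenase, *Prodh*, was called at 1.09 ± 0.299 against 3.21 ± 1.73 FPKM (-1.57, edgeR adjusted p = 0.0440). *Bckdhb*, a subunit of the branched-chain keto acid dehydrogenase, named after its values were seen, passed the adjusted p but not the fold (-0.68, edgeR adjusted p = 0.0437). *Slc2a4*, the glucose transporter of the list, also named after its values were seen, went the other way at 12.9 ± 8.07 against 5.36 ± 5.57 FPKM (1.27, edgeR adjusted p = 0.226), and limma voom called it upwards.

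Of 13 tested genes that glucocorticoids induce in many tissues, as they do *Klf15* and *Klf9*, 9 were lower and 4 higher, with a median log2 fold change of -0.60. An unadjusted p under 0.05 was reached by 6 of the 13, against 26.1% of all genes tested. *Fkbp5*, a chaperone of the steroid receptors, was the 1 gene of the list called in edgeR, against 4.24% of all genes tested. It had 0.997, 1.17, 1.56, 0.983 and 0.760 FPKM in TG1 to TG5 and 4.39, 2.27, 5.04, 3.24 and 2.14 FPKM in WT1 to WT5, and the genotypes did not overlap. Its log2 fold change was -1.65 (standard error 0.28, edgeR adjusted p = 0.0199). The clock gene *Per1*, named after its values were seen, passed the adjusted p short of 2-fold (-0.98, edgeR adjusted p = 0.0342), whereas *Sgk1*, likewise named after its values were seen, had a higher mean (24.2 ± 10.3 against 12.3 ± 2.85 FPKM, edgeR adjusted p = 0.0780). Progesterone and androgen receptors are known to induce several of these genes too.

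Of the steroid receptors themselves 6 were tested and the mineralocorticoid receptor *Nr3c2* was called upwards, at 1.25 ± 0.332 against 0.339 ± 0.140 FPKM (log2 fold change 1.88, edgeR adjusted p = 0.0227). Of 22 immediate early genes, the class to which *Klf6* and *Klf10* are often counted, 12 were higher and 10 lower, and *Myc* was called downwards (-1.25, edgeR adjusted p = 0.0498), with WT4 at 11.7 FPKM among the HSD17B1TG mice. DESeq2 and limma voom each called 4 genes of this list, 3 of them upwards, and *Klf6* and *Klf10* were called in none of these fits.

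**Figure D4:**
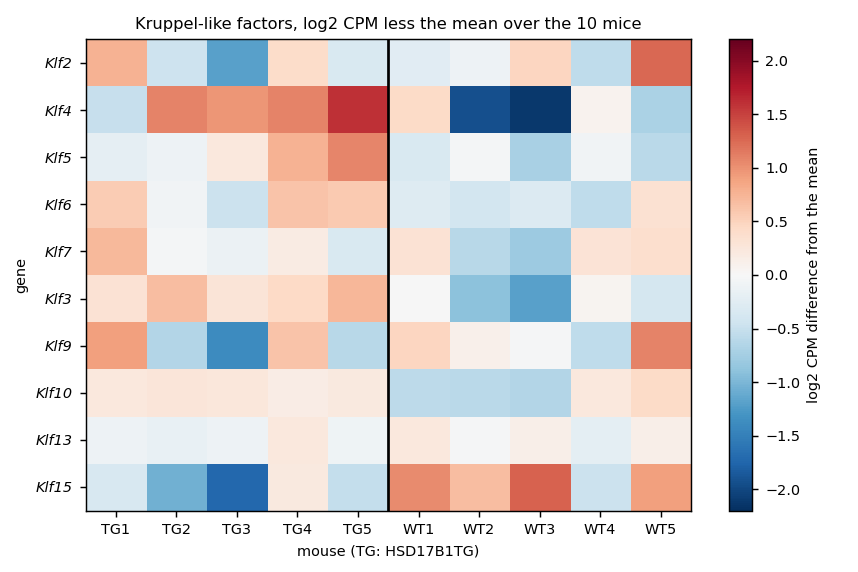
Log2 CPM of each member (rows) in each mouse (columns) less the mean over the 10 mice, red above and blue below that mean. *Klf2* and *Klf9* are high together in TG1, TG4 and WT5 and low together in TG3, and *Klf4* and *Klf3* are low together in WT2 and WT3.

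Likeness between members within genotypes is given for *Klf4*, *Klf9* and *Klf15*. With log2 CPM centred on the mean of each genotype, *Klf4* and *Klf3* had a Pearson r of 0.882 over the 10 mice (Spearman's rho 0.879), and 0.908 without TG1 and WT3. The values of *Klf4* with the other 8 members ran from -0.44 (*Klf2*) to 0.46 (*Klf5*). Without these mice that with *Klf5* dropped to 0.07 and that with *Klf2* moved to -0.15, whereas that with *Klf7* rose from 0.31 to 0.60. *Klf9* had an r of 0.894 with *Klf2*, 0.840 with *Klf6* and 0.754 with *Klf15*, and *Klf15* had 0.809 with *Klf13*. Without TG1 and WT5 these values of *Klf9* were 0.801, 0.779 and 0.863, and that of *Klf9* with *Klf13* rose from 0.569 to 0.822. But without TG3 and WT4, the mice farthest out in *Klf15*, *Klf15* with *Klf9* dropped to 0.487 and with *Klf13* had 0.821. Likewise *Klf15* went from 0.731 to 0.445 with *Klf2* and from 0.746 to 0.498 with *Klf6*. Among 8057 protein-coding genes with a mean over 5 FPKM, the pattern most like that of *Klf4* was that of *Prkab1* (r = 0.976), then *Rnf181* (0.962) and *Mdfi* (0.962). The nearest to *Klf9* were *Fyn* (r = 0.980), *Tmem204* (0.975) and *Acbd4* (0.971), and these 3 kept at least 0.942 without TG1 and WT5. For *Klf15* they were *Tk2* (0.938), *Tgfb1* (0.937) and *Pla2g7* (0.936), of which *Tk2* and *Pla2g7* dropped to 0.764 and 0.748 without TG3 and WT4 while *Tgfb1* stayed at 0.935. These values describe 10 points that share the libraries, their depth and their cell makeup, and no test was attached to them.

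Levels of cell type markers also differed. In bulk tissue fewer cells of a type and less RNA per cell cannot be told apart. All 14 epithelial markers were higher in HSD17B1TG (median 1.24 on the log2 scale, 1 called in edgeR, 4 in DESeq2 and 9 in limma voom), and their summed FPKM lay between 785 and 3688 in HSD17B1TG and between 547 and 1857 in WT. Of 12 stromal markers 11 were lower (median -1.58, 7 called in edgeR), with sums of 632 to 2337 in HSD17B1TG, where TG1 was the highest, and 2121 to 2725 in WT. The 10 endothelial markers summed to 42.6 to 154 in HSD17B1TG and 80.3 to 183 in WT, with a median log2 fold change of -0.65 and 0 called in edgeR, 5 of them at an unadjusted p under 0.05, and with 2 called in DESeq2 and 3 in limma voom. The endothelial genes with the smallest p were *Emcn* (-1.36, edgeR adjusted p = 0.0513) and *Esam* (-1.22, 0.0740). In all 8 of the 10 were lower and 2 higher, among the latter *Cldn5* (1.19, edgeR adjusted p = 0.110), named after its values were seen. Sums were 878 to 7426 and 426 to 5826 for 10 smooth muscle markers, 168 to 251 and 109 to 310 for 8 leucocyte markers, 2.87 to 41.6 and 3.05 to 6.48 for 8 squamous markers, 5.32 to 9.64 and 5.04 to 9.62 for 7 oviduct and cilia markers (*Sntn* is not listed), and 3.18 to 44.5 and 0.244 to 11.4 for 6 adipocyte markers, each in HSD17B1TG and WT.

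The epithelial gene called in edgeR was *Prom1* (log2 fold change 1.87), and the stromal genes called were *Hand2*, *Pdgfra*, *Hoxa11*, *Hoxa10*, *Thy1*, *Mfap4* and *Col3a1* (-2.36 to -1.46). Of the 8 leucocyte markers 7 were lower, and the 1 that was higher, *Laptm5*, was called (1.28, edgeR adjusted p = 0.0312), while DESeq2 also called *Cd52* and *Ptprc* and limma voom *Cd52* downwards. Of 5 tested squamous markers 3 were higher and 2 lower, and *Krt13* was called upwards with no overlap between the genotypes (4.30, edgeR adjusted p = 0.0426), at 9.46 ± 6.39 against 0.473 ± 0.459 FPKM. All 10 smooth muscle markers were higher (median 0.56), and their sum was highest in TG1 (7426) and WT4 (5826), against at most 3123 in the other 8 mice. TG1 was the lowest HSD17B1TG mouse in *Klf4* (40.6 FPKM) but above the mean of its group in *Klf15* (4.90 against 4.28 FPKM). WT4 was the lowest WT mouse in *Klf15* (4.53 FPKM) but above the mean of its group in *Klf4* (61.3 against 40.5 FPKM). Whether muscle content bears on the members was not tested. The smallest p of the smooth muscle list belonged to *Smtn* (1.11, edgeR adjusted p = 0.266) and *Lmod1* (1.20, 0.337), and those of the oviduct and cilia list to *Dnah5* (1.91, 0.0915) and *Rsph1* (0.82, 0.214). Of the 4 tested genes of that list 2 were higher and 2 lower. The ciliary factor *Foxj1*, named after its values were seen and too low to be tested, had 0.0269 ± 0.0311 against 0.494 ± 0.365 FPKM. *Fabp4* was the 1 adipocyte marker tested (1.96, edgeR adjusted p = 0.144), and DESeq2 called it upwards.

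The members were also set against the marker sums of each mouse. Per 1000 FPKM of epithelial markers, a quotient chosen after the values were seen, *Klf4* was 40.7 to 55.4 in HSD17B1TG (median 47.6) and 16.9 to 66.3 in WT (median 33.0), so the HSD17B1TG range lay inside the WT range. *Klf3* by the same quotient was 6.16 to 22.4 (median 8.60) and 7.97 to 19.5 (median 9.14), and *Klf5* was 2.46 to 7.65 (median 3.92) and 3.53 to 8.20 (median 6.21), so that for both the HSD17B1TG median was the lower one. *Klf2* per 1000 FPKM of endothelial markers was 138 to 291 in HSD17B1TG (median 165) and 113 to 224 in WT (median 130), and *Klf9* was 160 to 319 (median 253) and 110 to 276 (median 247). *Cldn5* weighed on that sum and was left out after its values were seen, while *Vwf*, also higher (log2 fold change 0.13), was kept. Without *Cldn5* the medians were 249 and 159 for *Klf2* and 368 and 270 for *Klf9*, in HSD17B1TG and WT, with ranges that still overlapped. *Klf15* per 1000 FPKM of stromal markers was 1.86 to 6.88 (median 2.52) and 1.92 to 6.21 (median 4.29). All of these ranges overlapped between the genotypes, and the part of cell makeup in the differences was not tested.

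**Figure D5:**
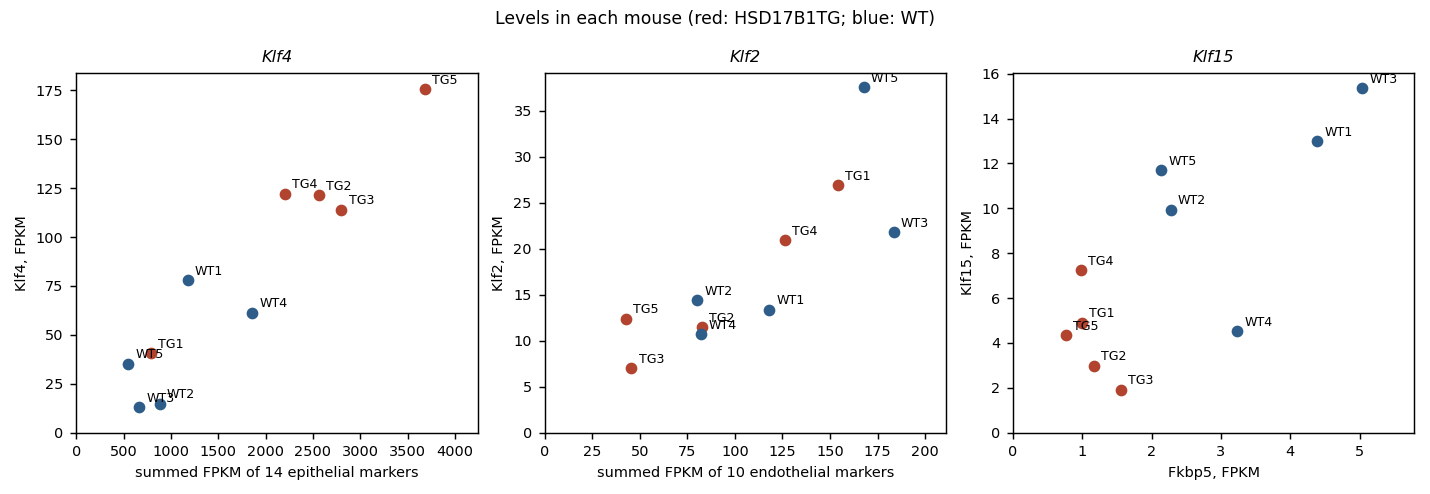
FPKM of *Klf4* against the summed FPKM of 14 epithelial markers, of *Klf2* against the sum of 10 endothelial markers and of *Klf15* against *Fkbp5*, 1 point per mouse (red HSD17B1TG, blue WT). TG1 has the lowest *Klf4* and epithelial sum of the HSD17B1TG mice (40.6 and 785 FPKM), and WT4 has a low *Klf15* (4.53 FPKM) at a *Fkbp5* level of 3.24 FPKM.

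Mouse *Hsd17b1* had 0.992 ± 0.291 FPKM in HSD17B1TG and 0.918 ± 0.375 in WT. The transgene is the human gene, whose reads the mouse annotation does not count, so this value does not check the labels.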

How the data were processed

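The authors mapped paired-end NovaSeq reads of 10 uteri with HISAT2 2.0.5 to GRCm38 with the Ensembl annotation and deposited 1 table with the raw count and the FPKM of each gene in each mouse. How reads were counted, and whether strand was used, is not given in the sources used here. Log2 fold changes and p-values of the authors' own comparison, in the same table, and enrichment tables were not used, nor was a column of normalised counts. Samples were grouped by the genotype in the labels, which name no batch. The labels end in a number they do not explain, which WT2 and WT3 share, as do TG3 and TG4, and TG1 and WT4, and it was not modelled.

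Counts were tested with the quasi-likelihood test of edgeR 4.0.16 (R 4.3.3) after filterByExpr and TMM, with Benjamini-Hochberg adjustment over 16993 genes. The thresholds were those of the study, which applied them to DESeq2. FPKM served for levels only. Alternatives were DESeq2 1.42.0, limma 3.58.1 (voom with quality weights, log2(FPKM + 1) and log2(FPKM + 0.1)), RLE and upper-quartile scaling, no filter, other thresholds, and mice left out. The fits were tested on simulated data. A count of 3 corresponds to 0.202 CPM in the mouse with the lowest total, for counting error only. Mitochondrial genes took 1.94% to 7.57% of counts.

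All 10 members are named, and of each context list the genes called or, with 0 called, the 2 with the smallest p. For *Klf4*, *Klf9* and *Klf15* the 3 genes with the highest Pearson r are named. Further genes are marked as named after their values were seen. Members and lists were chosen with earlier results of these data known. Overlaps between genes are from GENCODE M21.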

Additional observations from a re-analysis of the deposited data

Results flagged for a closer look

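*Klf13* in TG4, at 10.2 FPKM, stood apart from the other 4 HSD17B1TG mice at 7.72 to 8.12 FPKM. The gap to the nearest mouse was 0.839 of the range of the group, above Dixon's 95% critical value of 0.71 for 5 samples. It was 1 of 20 groups checked (10 members in 2 genotypes), and chance gives about 1 in 20. TG4 was within the WT range of 7.56 to 10.2 FPKM for this gene.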

How the results depend on the processing

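The number of members called was 0 in edgeR with TMM, RLE or upper-quartile scaling, without the filter on low counts, on the adjusted p alone, without both WT3 and WT4, and in limma on log2(FPKM + 1) or log2(FPKM + 0.1). It was 2 with DESeq2 (7.76% of all its genes), 3 with limma voom and quality weights (10.3%), and 1 (*Klf15*) at an adjusted p under 0.1 with a fold over 2. The share of all genes at that last threshold was not counted, so this 1 has no background to be read against. Leaving out 1 mouse at a time gave 0 to 2, and it was 2 without WT4 (*Klf3* up and *Klf15* down). Over all genes these fits called 65 (without TG5) to 1554 (without WT4), against 721 with all mice. The cause of these differences was not tested. With mice left out, the log2 fold change of *Klf3* lay between 0.73 and 1.05, that of *Klf4* between 1.25 and 1.86, and that of *Klf15* between -1.63 and -1.19. *Klf2* ranged from -0.60 to 0.0366, positive without WT5, and *Klf7* from -0.073 to 0.22, negative without TG1, WT2 or WT3. Of the context genes, the calls of *Klf8*, *S1pr1*, *Prodh*, *Fkbp5*, *Myc* and *Nr3c2* were lost in 5, 8, 7, 3, 9 and 5 of the 10 fits with 1 mouse left out. Of these 6, limma on log2(FPKM + 1) called *S1pr1* and *Fkbp5* only. The calls of the markers *Hand2* and *Pdgfra* were lost in 1 and 3 of these fits, those of *Hoxa10*, *Hoxa11* and *Laptm5* in 6, that of *Prom1* in 7, and those of *Col3a1*, *Thy1*, *Mfap4* and *Krt13* in 8. No paired analysis was possible because the genotypes share fewer than 2 numbers in their labels. With 5 mice a group, the 95% intervals of 6 members included both directions, and a missed threshold does not show equal levels. Depth limits none of the members, whose lowest count was 100, but *Klf8*, *Nr3c2* and *Sp5* reached at most 177, 165 and 191 counts in any mouse.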
